A study of Homo sapiens with 11 samples.

Results

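The collagen family was followed in HK2 cells through 44 genes, from COL1A1 to COL28A1, out of 19645 protein-coding genes found both in the RNA-seq data and in the annotation. The genes were taken by symbol and by no measured value, and all 44 were present. They were divided by textbook knowledge into 11 fibrillar collagens, 6 basement membrane collagens, which are the type IV chains, and 27 other collagens. HK2 is a human proximal tubule epithelial line immortalised with papillomavirus oncogenes. All samples came from these cells in 1 condition, in a medium with serum and a little DMSO that every sample shared, and no other treatment or genetic change was named. H3K4me3, a mark of promoters, H3K27ac, a mark of active promoters and enhancers, and H3K27me3, a mark of repressed chromatin, were mapped by ChIP-seq, 2 replicates to a mark, and total RNA depleted of rRNA was sequenced in 2 libraries. With 1 condition there were no groups to test, so each value below is a description of these samples set beside the same value over all protein-coding genes, and nothing states that the replicates came from separate cultures, so their spread may be technical.

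Collagens are secreted proteins whose chains wind together into a triple helix. Type IV chains form the sheet-like network of basement membranes, on which tubule epithelium rests, and in the kidney the chains COL4A3, COL4A4 and COL4A5 make up the mature glomerular basement membrane. Fibrillar collagens such as types I and III build the fibrils of interstitial matrix and are classically products of fibroblasts, while the remaining types coat fibrils, form beaded filaments or anchoring fibrils, span the cell membrane or lie in basement membrane zones. The 6 type IV genes lie as 3 head-to-head pairs, each pair transcribed in opposite directions from neighbouring start sites.

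The messenger RNA level was taken as FPKM, fragments per kilobase of transcript scaled to the mapped fragments of the library, summed over the transcripts of each gene, so that levels can be compared between genes per length. COL4A2 was listed at 383 FPKM in library 1 and 375 in library 2 (379 ± 5.55, SD, n = 2), and COL4A1 at 329 and 337 (333 ± 5.97). These were the highest values among the collagens. COL4A2 ranked 112 and COL4A1 126 among the 19645 genes, so that 0.565% and 0.636% of genes were higher. The other type IV chains were far lower. COL4A5 was listed at 1.67 and 1.33 FPKM, COL4A4 at 0 and 0.00549, COL4A6 at 0 and 0.00370, and COL4A3 at 0 in both libraries. COL4A1 and COL4A2 thus held nearly all of the 713 and 714 FPKM of the class, and the median of the 6 genes was 0.751. COL4A1 to COL4A2 stood at a ratio of 0.859 in library 1 and 0.900 in library 2, a mean log2 ratio of -0.19 ± 0.047 (SD, n = 2 libraries), so the COL4A2 value was the higher in both libraries. Cell number and RNA per cell cannot be told apart in such bulk samples.

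The pairs differed in chromatin as well as in level, and the sequences between their facing start sites are shown because a short interval separates the genes of each pair. Transcription start sites (TSSs) are those of GENCODE version 44 on GRCh37 (hg19), the build of the peaks. COL4A1 (ENSG00000187498, chr13:110801310-110959504, minus strand) and COL4A2 (ENSG00000134871, chr13:110958159-111165556, plus strand) have 126 bp between their canonical starts, chr13:110959505-110959630. An alternative transcript of COL4A2, ENST00000400163, starts inside COL4A1 at 110958159 and held 0.630% and 0.625% of the COL4A2 FPKM. COL4A4 (ENSG00000081052, chr2:227867430-228029169, minus strand) and COL4A3 (ENSG00000169031, chr2:228029340-228179508, plus strand) have 170 bp between their nearest facing starts, chr2:228029170-228029339, and 418 bp between the starts of the canonical transcripts. COL4A6 (ENSG00000197565, chrX:107398837-107682727, minus strand) and COL4A5 (ENSG00000188153, chrX:107683068-107940775, plus strand) have 340 bp between the nearest starts, of which the 300 bp next to COL4A5, chrX:107682768-107683067, are shown, and 1415 bp between the canonical starts. All are given on the plus strand. Capitals mark 3 motifs searched on either strand, which share no letters within these sequences. The first is the GC box, spelled GGGCGG. The second is the CCAAT box, and the last is the TATA box, spelled TATAAA.
COL4A1 to COL4A2: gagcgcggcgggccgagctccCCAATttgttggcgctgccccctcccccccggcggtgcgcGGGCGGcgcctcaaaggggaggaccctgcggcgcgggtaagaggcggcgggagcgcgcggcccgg
COL4A4 to COL4A3: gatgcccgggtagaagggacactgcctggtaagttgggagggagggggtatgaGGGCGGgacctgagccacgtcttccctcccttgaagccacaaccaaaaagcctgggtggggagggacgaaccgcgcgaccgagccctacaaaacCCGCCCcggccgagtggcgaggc
COL4A6 to COL4A5: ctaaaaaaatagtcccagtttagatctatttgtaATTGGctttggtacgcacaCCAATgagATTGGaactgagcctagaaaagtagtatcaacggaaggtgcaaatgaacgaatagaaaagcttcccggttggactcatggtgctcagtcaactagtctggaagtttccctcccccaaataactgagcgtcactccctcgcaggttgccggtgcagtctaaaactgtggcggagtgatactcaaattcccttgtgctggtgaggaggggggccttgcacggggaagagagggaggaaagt
The GC content was 80.2% between COL4A1 and COL4A2, 65.9% between COL4A4 and COL4A3 and 48.3% beside COL4A5, with 20, 12 and 9 CpG dinucleotides. The first interval held 1 GC box and 1 CCAAT box, the second 2 GC boxes, and the third 3 CCAAT boxes, and none of the 3 held TATAAA. Such matches describe letters and not bound sites.

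A single H3K4me3 peak covered both starts of COL4A1 and COL4A2 in each replicate, over 6203 bp in replicate 1 (chr13:110956062-110962264) and 3293 bp in replicate 2 (chr13:110958406-110961698). H3K27ac covered both starts over 11842 bp and 3994 bp, and no H3K27me3 peak lay within 5000 bp of the middle of the interval in either replicate. Between COL4A4 and COL4A3 the H3K4me3 peaks were shorter, 1225 bp (chr2:228028551-228029775) and 1229 bp (chr2:228028527-228029755), and H3K27me3 covered the same starts over 4720 and 2058 bp. There was no H3K27ac peak within that distance of this pair, and the H3K27ac peak counted for COL4A3 in replicate 1 (chr2:228174907-228175594) lay at a start near the far end of the gene. At the COL4A6 and COL4A5 pair the H3K4me3 peaks, 743 bp (chrX:107682937-107683679) and 549 bp (chrX:107683237-107683785), lay on the COL4A5 side and reached neither the nearest nor the canonical start of COL4A6. H3K27me3 was called there in replicate 1 alone, over 1144 bp and both nearest starts, and H3K27ac in neither replicate. The 3 pairs therefore showed H3K4me3 with H3K27ac at 379 and 333 FPKM, H3K4me3 with H3K27me3 at 0 to 0.00549 FPKM, and H3K4me3 on the side of the chain with the higher level in the pair of COL4A5 and COL4A6. COL4A5 and COL4A6 differed in the same direction in both libraries, but no fold is given against a gene listed at 0.

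**Figure D1:**
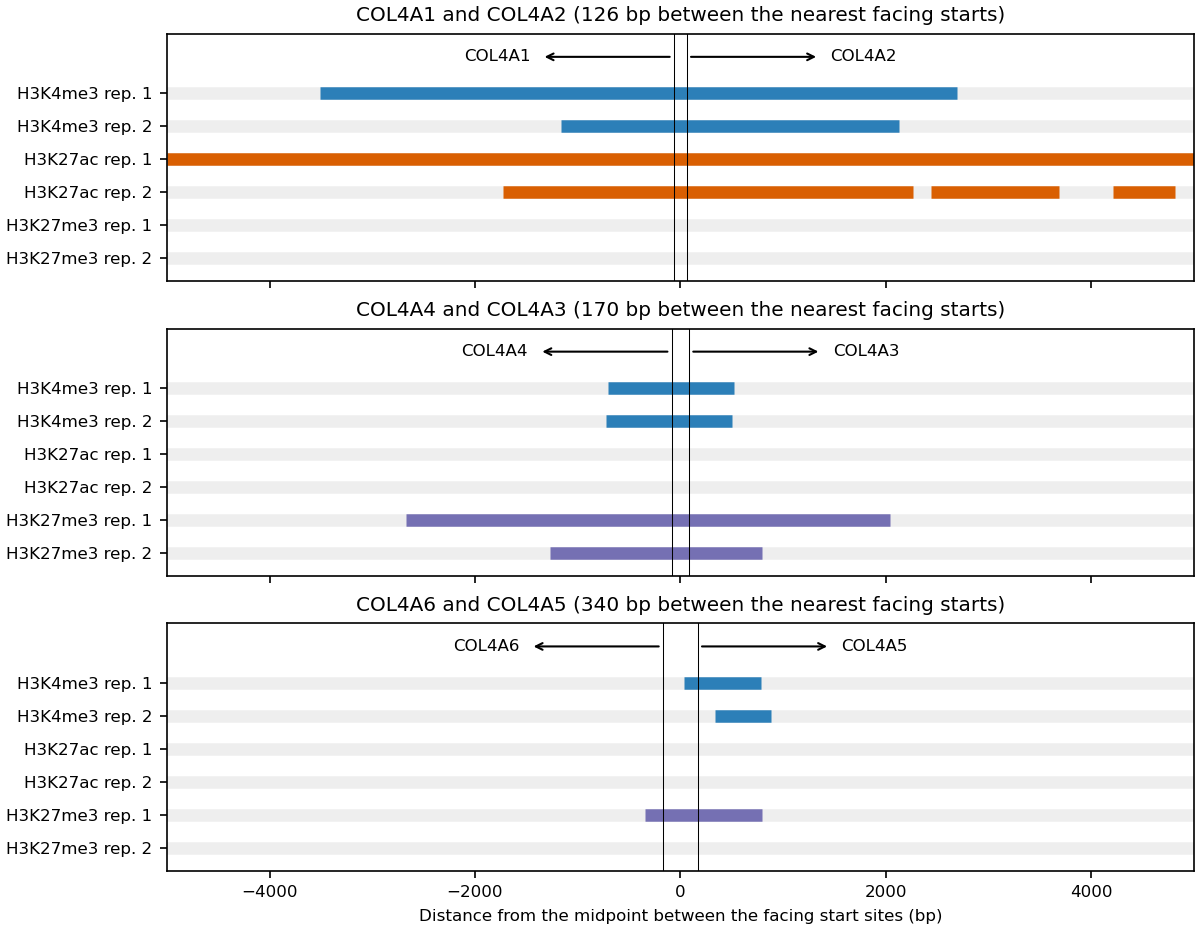
Peaks of each replicate (rows, coloured bars) around the 3 type IV head-to-head pairs, by distance in bp from the midpoint between the nearest facing start sites (vertical lines), with arrows in the direction of transcription. H3K4me3 and H3K27ac covered both starts of COL4A1 and COL4A2, H3K4me3 and H3K27me3 both starts of COL4A4 and COL4A3, and the H3K4me3 peaks of the third pair lay on the COL4A5 side.

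Across the family, 18 of 44 collagens reached 1 FPKM in both libraries, against 58.8% of all protein-coding genes, and the median collagen stood at 0.338 FPKM against a median of 3.32 over all genes. At the upper end, 4 of the 44 passed 100 FPKM in both libraries, against 2.37% of all genes, and 7 were listed at 0 in both, against 19.6%. The 44 genes together held 1388 and 1348 FPKM, or 0.401% and 0.392% of the protein-coding sum. Type IV chains made up 51.4% and 52.9% of that, fibrillar chains 9.91% and 10.2%, and the other collagens 38.7% and 36.9%. Between libraries, the 18 genes differed by a median of 1.05-fold, against 1.09-fold for all genes with an FPKM of at least 1, and their SD was a median of 3.33% of their mean.

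**Figure D2:**
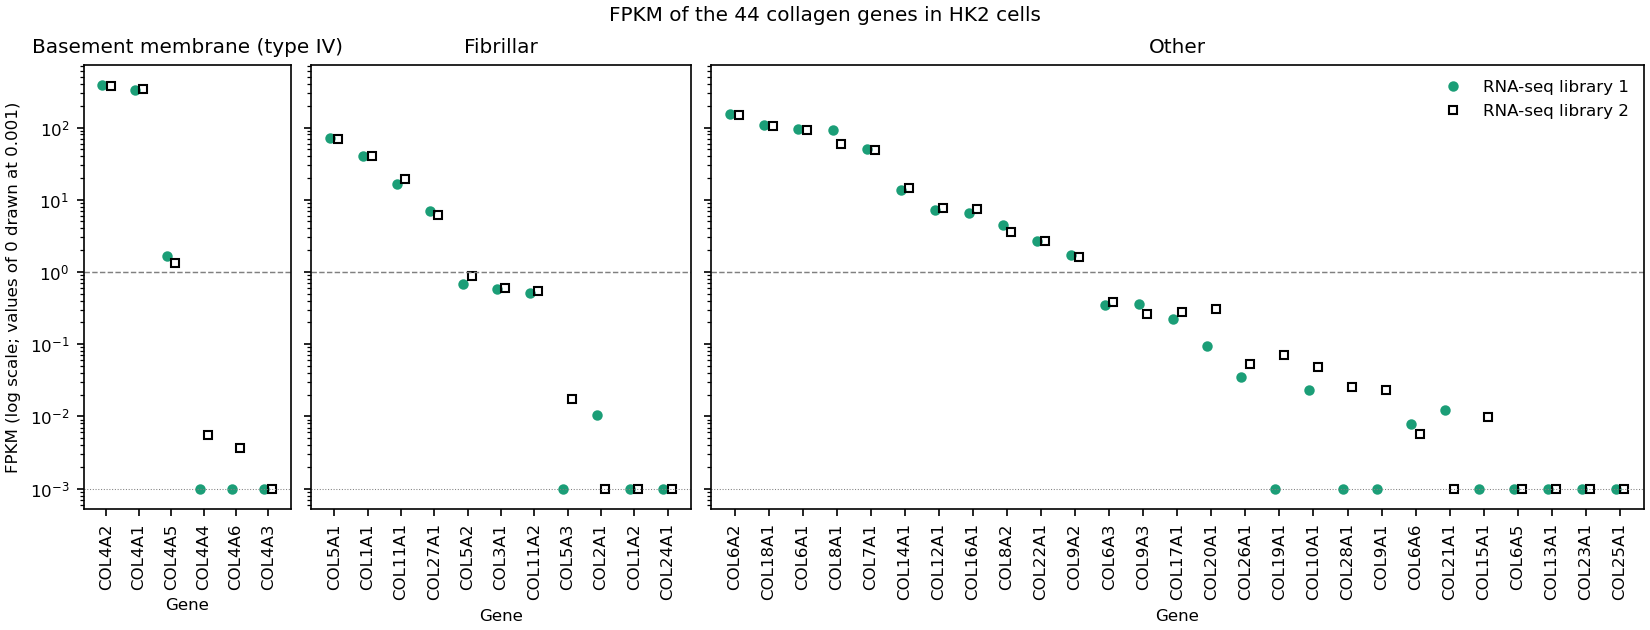
FPKM of each of the 44 collagen genes (log axis, values of 0 drawn at 0.001) in RNA-seq library 1 (circles) and library 2 (squares), in panels for basement membrane, fibrillar and other collagens, with a dashed line at an FPKM of 1. COL4A2 and COL4A1 stand highest at 379 and 333 FPKM on average, and 18 genes lie above the line in both libraries.

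Among the fibrillar collagens, 4 of 11 reached an FPKM of 1, and the class median was 0.592. COL5A1 (ENSG00000130635, chr9:137533649-137736689), whose product sits inside type I fibrils and limits their width, was listed at 72.1 and 70.0 FPKM. COL1A1 (ENSG00000108821, chr17:48261462-48278993), the main chain of type I collagen, followed at 40.3 and 39.9, and its libraries were the closest of these 4 (40.1 ± 0.290, SD, n = 2). COL11A1, a minor fibril chain best known from cartilage, stood at 16.4 and 19.6, and COL27A1, a cartilage fibril chain, at 7.02 and 6.06. None of the remaining 7 reached 1. COL5A2, the usual partner of COL5A1, was highest among them with 0.679 and 0.886, followed by COL3A1, the type III chain of interstitial matrix, with 0.577 and 0.607 and COL11A2 with 0.508 and 0.546. COL5A3, COL2A1, COL1A2 and COL24A1 lay at or below 0.0176 in each library, and COL1A2 and COL24A1 were listed at 0 in both. COL1A2 (ENSG00000164692, chr7:94024207-94060539) codes for the second chain of the type I heterotrimer. In both libraries 0 of its 78 listed exons had any coverage, against 73 of 73 for COL1A1.

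The type I chains, whose products are usually wound together, also differed in their marks. At COL1A1, H3K4me3 covered 2423 bp in replicate 1 and 1247 bp in replicate 2, and H3K27ac 2876 and 1490 bp, all within 1 kb of the canonical start. COL1A2 showed none of these marks in either replicate at its 12 annotated starts, 1 kb to each side included.

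Of the 27 other collagens, 11 reached an FPKM of 1, and the class median was 0.253. Type VI collagen forms beaded filaments near basement membranes, and COL6A2 (ENSG00000142173, chr21:47518026-47552762) was listed at 153 and 151 FPKM and COL6A1 (ENSG00000142156, chr21:47401684-47424964) at 96.0 and 92.5. COL18A1 (ENSG00000182871, chr21:46825080-46933634), a basement membrane proteoglycan and the precursor of endostatin, stood at 109.5 and 106. COL7A1 (ENSG00000114270, chr3:48601506-48632762), the anchoring fibril chain of epithelia, stood at 49.8 and 48.9. Each of these 4 differed between libraries by less than 1.5-fold. COL8A1 (ENSG00000144810, chr3:99357319-99518070), a short-chain network collagen known from endothelium and the cornea, was the exception with 92.1 and 60.0 FPKM, a 1.53-fold difference. It was the only collagen with an FPKM of at least 1 whose libraries differed by over 1.5-fold, where 14 collagens and 8732 genes in all had a mean FPKM of at least 5 and 3.86% of the latter did so, and its level has a wide spread (76.1 ± 22.7, SD, n = 2).

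Fibril-associated collagens, which coat fibrils without forming them, reached an FPKM of 1 in 5 of 10 genes. COL14A1 led them at 13.6 and 14.4, COL12A1 followed at 7.28 and 7.71 and COL16A1 at 6.47 and 7.52. COL22A1 stood at 2.71 and 2.69 and COL9A2, a cartilage chain, at 1.69 and 1.60. COL8A2, the second type VIII chain, was listed at 4.46 and 3.53. The 4 transmembrane collagens, COL13A1, COL17A1, COL23A1 and COL25A1, were all under 1, with the highest value, 0.280, for COL17A1, the hemidesmosomal collagen of skin, and 0 in both libraries for the other three. The 16 other collagens under 1 lay between 0 and 0.387 FPKM in each library, and the 7 listed at 0 in both libraries across the family were COL1A2, COL4A3, COL6A5, COL13A1, COL23A1, COL24A1 and COL25A1.

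Several collagens are built from products of more than 1 gene, and the levels of partner chains were set side by side, a comparison chosen after the values were seen. Besides COL1A2 in type I, several partner chains stood far below the others of their type. COL6A3, the longest of the classical type VI chains, was listed at 0.345 and 0.387 FPKM, and the alternatives COL6A5 and COL6A6 at no more than 0.00781. COL6A1 was higher than COL6A3 by 8.01 ± 0.156 on the log2 scale and COL6A2 by 8.70 ± 0.129 (SD, n = 2 libraries), or 279- and 239-fold for COL6A1 in the libraries. With the canonical transcript of COL6A1 in place of the sum over its transcripts, the folds over COL6A3 were 82.9 and 48.5. In type V, COL5A1 exceeded COL5A2 106- and 79.0-fold (log2 6.52 ± 0.302), and in type XI, COL11A1 exceeded COL11A2 32.2- and 35.9-fold (5.09 ± 0.109). Type VIII was less uneven, with 20.7- and 17.0-fold more COL8A1 than COL8A2 (4.23 ± 0.200). In each of these 5 ratios of summed FPKM the difference was many times the spread between the libraries. COL9A2 stood 4.68- and 6.15-fold above COL9A3 (2.42 ± 0.279). The COL9A3 value is uncertain, since 32 of its 55 listed exons had any coverage in library 1 and 5 in library 2, and the gene overlaps TCFL5, listed at 10.5 and 10.3 FPKM on the opposite strand, over 155 bp. By summed FPKM, COL6A1 and COL6A2 stood near each other (ratios 0.629 and 0.613, log2 -0.69 ± 0.027), as did COL4A1 and COL4A2, given above. By canonical transcripts COL6A2 was 4.06- and 6.04-fold above COL6A1.

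**Figure D3:**
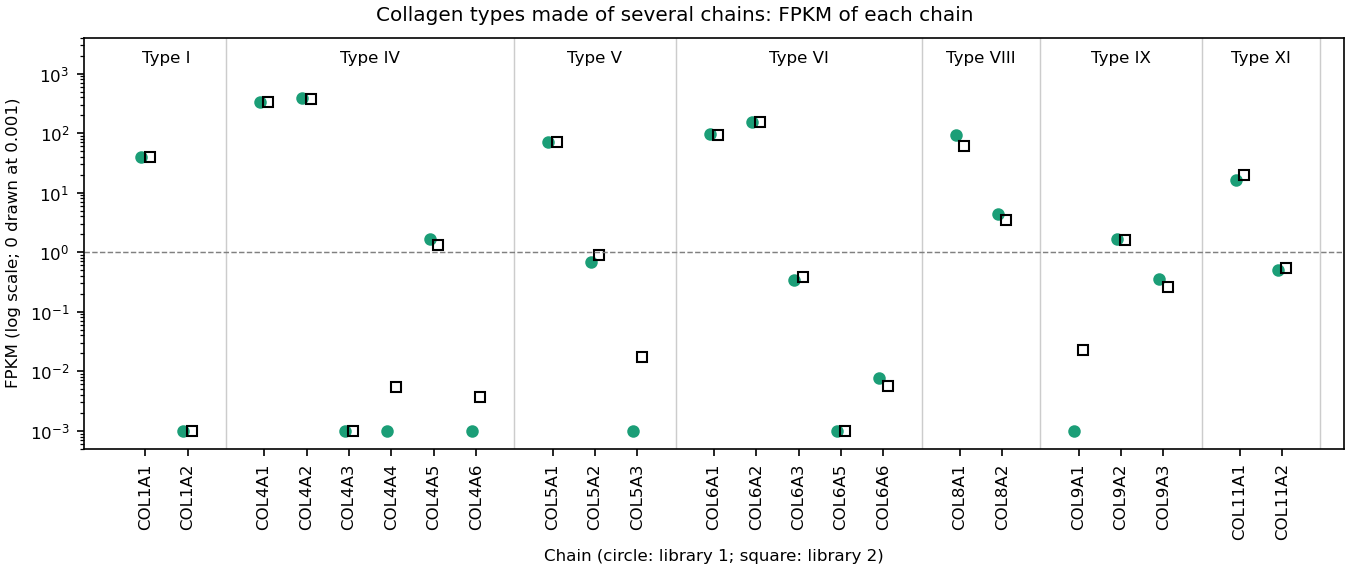
FPKM summed over transcripts (log axis, values of 0 drawn at 0.001) of each chain of the collagen types made of several chains, in library 1 (circles) and library 2 (squares), with a dashed line at an FPKM of 1. COL4A1 and COL4A2 stand together, and so do COL6A1 and COL6A2, whereas COL1A2, COL5A2, COL6A3 and COL11A2 lie under 1 below a partner of 16.4 FPKM or more.

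The sums rest on different transcripts in different genes. ENST00000375820 held 99.6% and 99.8% of the FPKM of COL4A1 in the libraries, ENST00000360467 97.9% and 98.1% of COL4A2, ENST00000225964 91.2% and 91.1% of COL1A1 and ENST00000328333 86.1% in each library of COL7A1. For COL5A1 and COL18A1 the leading transcripts, ENST00000618395 with 77.9% and 78.2% and ENST00000400337 with 81.3% and 80.1%, had no counterpart in the annotation used for start sites. The sum for COL6A1 rested on short models at the end of the gene. ENST00000361866, the canonical transcript from the marked start, held 28.6 and 18.8 FPKM, while ENST00000612273 and the retained intron ENST00000498614, which start in the last part of the gene, held 27.8 and 41.7 FPKM and 37.7 and 29.6 FPKM, respectively. The canonical transcript of COL6A2 was at 116 and 113 FPKM. That of COL4A5, ENST00000328300, led the gene at 0.806 and 0.791 FPKM, so COL4A5 reached 1 only as a sum. The sum includes the retained introns ENST00000470339 (0.593 and 0.256) and ENST00000510690 (0.192 and 0.0899). With the leading transcript alone, 17 collagens reached an FPKM of 1 in both libraries, and the share of all genes on that basis was not computed. In COL8A1, ENST00000261037 held 34.8% and 63.4% and ENST00000273342 52.1% and 7.21% of the FPKM. The second of these was listed at 48.0 FPKM in library 1 and 4.33 in library 2, which is more than the whole difference of the gene between libraries, while the first was at 32.0 and 38.0.

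A mark was taken as present at a gene where each replicate had a peak within 1 kb of an annotated TSS of that gene, not necessarily the same TSS. H3K4me3 was present at 27 of 44 collagens, against 70.3% of all protein-coding genes, H3K27ac at 12, against 55%, and H3K27me3 at 16, against 11.4%. The share with H3K27me3 was thus 36.4% of the family. Collagens have a median of 7.5 annotated starts against 5 for all protein-coding genes, so the canonical start alone was also used. There, H3K4me3 was present at 26 collagens (67.1% of all genes with a canonical start), H3K27ac at 12 (51%) and H3K27me3 at 13 (9.46%). The 3 genes that lost H3K27me3 were COL6A3, COL20A1 and COL28A1, and the gene that lost H3K4me3 was COL4A6. In those 3 genes the H3K27me3 peaks of the replicates within 1 kb of a start lay apart and did not overlap. Where both replicates had to cover at least 50% of the same 200-bp bin, H3K27me3 was at 13 collagens. The share of all genes under this rule was not computed. H3K27ac depended on the replicate. It was present at 20 collagens in replicate 1, against 67.5% of all genes, and at 12 in replicate 2, against 55.1%. H3K4me3 was present at 27 in replicate 1, against 71.9%, and at 36 in replicate 2, against 78%. H3K27me3 differed least between replicates, at 19 in replicate 1, against 14.5%, and 18 in replicate 2, against 13%.

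H3K4me3 and H3K27ac without H3K27me3 were found at 12 collagens, against 52.2% of all genes. They were COL4A1, COL4A2, COL6A2, COL18A1, COL8A1, COL5A1, COL7A1, COL1A1, COL11A1, COL14A1, COL16A1 and COL27A1. All 12 had an FPKM of at least 1, where 92.6% of all genes with these marks did, and their mean levels ran from 6.54 to 379 FPKM with a median of 60.2, against a median of 11.7 for all such genes. H3K4me3 alone was found at 7, against 11.1%, and 6 of them, COL6A1, COL12A1, COL8A2, COL22A1, COL9A2 and COL4A5, had an FPKM of at least 1 (65% of all such genes). All of these except COL4A5 also had H3K27ac in replicate 1. The seventh was COL4A6, through the peaks on the side of COL4A5. In COL8A2 the canonical transcript, from the start with H3K4me3, held 0.956 and 0.174 FPKM. ENST00000303143, from a start without H3K4me3 in either replicate, held 78.5% and 90.1% of the COL8A2 FPKM. The 18 collagens with an FPKM of at least 1 all had H3K4me3 in both replicates, and so did 97.3% of all such genes. With replicate 1 alone 17 of the 18 had H3K27ac (98% of all such genes), and with replicate 2 alone 12 (84.6%). With both replicates, 12 of these 18 carried H3K4me3 and H3K27ac, against 82.2% of all genes at that level. H3K27ac without H3K4me3 was found at 0 of 44, against 1.58%.

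H3K4me3 and H3K27me3 lay together at 8 collagens, against 7.02% of all genes. Of the 8, COL2A1 is the fibril chain of cartilage, COL4A3 and COL4A4 are glomerular chains, COL13A1 and COL25A1 span the membrane, COL9A3 and COL19A1 are fibril-associated, and COL26A1 was left unclassed. Their mean FPKM lay between 0 and 0.310, and 0 of 8 reached an FPKM of 1, where 24% of all genes with both marks did. COL19A1 starts within 1 kb of LMBRD1, listed at 13.9 and 15.9 FPKM on the opposite strand, so the H3K4me3 peaks of these genes cannot be told apart. H3K27me3 alone was found at 8 further collagens, COL6A3, COL20A1, COL28A1, COL9A1, COL6A6, COL15A1, COL6A5 and COL24A1, against 4.33%, and their means lay between 0 and 0.366 FPKM. Again 0 of 8 reached 1, where 0.705% of all such genes did. In COL6A3, COL20A1 and COL28A1 the H3K27me3 peaks of the replicates within 1 kb of a start did not overlap. The mark was thus not reproduced at the same place near a start. Over the whole body of COL6A3, peaks of both replicates together covered 1.48%. Of the 26 collagens under 1 FPKM in a library, 16 carried H3K27me3, against 23.5% of all genes under that level.

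No mark was called in both replicates at 9 collagens, against 23.8% of all genes. They were COL5A2, COL3A1, COL11A2, COL17A1, COL10A1, COL5A3, COL21A1, COL1A2 and COL23A1, of which 5 are fibrillar. Their means ran from 0 to 0.782 FPKM, and 0 of 9 reached an FPKM of 1 in both libraries, where 4.19% of all genes without a mark did. The 3 highest collagens under 1, COL5A2, COL3A1 and COL11A2, were among them. H3K4me3 was at all 6 type IV genes, 5 of the 11 fibrillar and 16 of the 27 other collagens, where 70.3% of all genes carried it. The 6 type IV genes share 3 sets of peaks, and COL4A6 is counted only through peaks on the COL4A5 side. H3K27me3 was at 2 type IV, 2 fibrillar and 12 other collagens. A further 9 collagens had H3K4me3 in replicate 2 and not in replicate 1, against 7.72% of all genes, and 6 of the 9 carried H3K27me3, against 32.7% of such genes. The H3K4me3 list of replicate 2 held 73942 peaks against 29130 in replicate 1, with a median width at collagen starts of 647 bp against 1488 bp, and the part of this in the 9 genes was not tested.

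**Figure D4:**
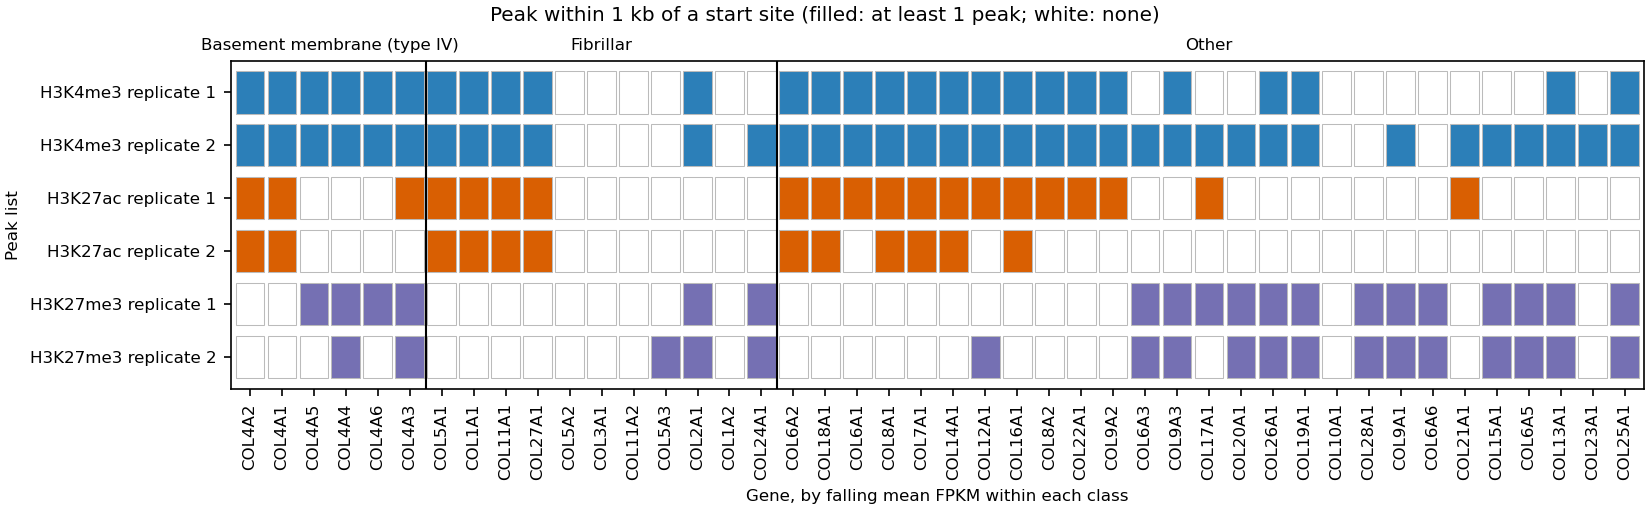
Presence (filled) or absence (white) of a peak within 1 kb of a start site in each of the 6 peak lists (rows) for the 44 collagens (columns, by falling mean FPKM within each class). H3K4me3 in both replicates lies at all 18 genes with an FPKM of at least 1, H3K27ac in both at 12 of these, and H3K27me3 in both at 16 genes under 1.

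The width of peaks at collagen starts followed the replicate. Median widths at collagen starts were 1904 bp and 943 bp for H3K27ac in replicates 1 and 2 and 2438 bp and 656 bp for H3K27me3. The widest H3K27ac peak at a canonical start was that of COL8A1 in replicate 1, 27779 bp (chr3:99352119-99379897). Replicate 2 had several separate peaks over that stretch. Those within 1 kb of a start were 1691 and 1332 bp wide, and others lay further into the gene. Chromosome 20 held 11.2% and 14.3% of the bases under H3K27me3 peaks, and the part of this in the values of COL9A3 and COL20A1, which lie on it, was not tested. Without these 2 genes, H3K27me3 was at 14 of the remaining 42 collagens and H3K4me3 at 26. The shares of all genes outside chromosome 20 were not computed.

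Inside the genes, away from any start, H3K27ac was spread unevenly. Segments were counted where peaks of both replicates overlapped over at least 200 bp, more than 1 kb from every start of the gene and without H3K4me3. A wide peak of replicate 1 gave several segments where replicate 2 had several narrow peaks, so segments are not separate elements. Several in COL4A2 lay in a single replicate 1 peak of 22090 bp. Several in COL8A1 lay in the replicate 1 peak of 27779 bp that also covers its start. There were 85 such segments in 11 of the 44 collagens, against 17.2% of all genes, and 74 of them lay in collagens with an FPKM of at least 1. COL4A2 held 27, over 207 kb, and H3K27ac of both replicates covered 18.6% of that gene. Its divergent neighbour COL4A1, of 158 kb, held 0, and 1.05% of it was covered. COL8A1 held 17 (14.7% covered), COL27A1 11 (7.66%), COL5A1 and COL14A1 7 each, COL18A1 4 and COL9A2 1. Holding at least 5 segments was found in 5 collagens, against 2.69% of all genes. A segment lay in 7 of the 18 collagens with an FPKM of at least 1, against 21.9% of such genes, and in 4 of the 26 under 1, against 10.4%. Collagen genes are long, with a median of 145 kb against 27.6 kb. Among genes with an FPKM of at least 1 and a length of at least 100 kb, 6 of 11 collagens held a segment, close to the 54.4% of all such genes. Per 100 kb, collagens with an FPKM of at least 1 held 3.02 segments against 0.966 for all such genes, and collagens under 1 held 0.260 against 0.344. The value of 3.02 rests largely on COL4A2 and COL8A1, with 27 and 17 of the 74 segments.

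The segments of COL4A2 lay as far as 179 kb from its start, and the widest, chr13:110997943-111002715 (4773 bp), lay 40.7 kb downstream of it. In COL8A1 the widest were chr3:99368688-99372396 (3709 bp), 13.1 kb from the start, and chr3:99499040-99501880 (2841 bp), 143 kb from it. In COL27A1 the widest was chr9:117038479-117040617 (2139 bp), 122 kb from the start. Collagens under 1 FPKM held few segments. COL5A2 and COL15A1 held 4 each, of 268 to 529 bp, COL21A1 2 and COL23A1 1. Which gene any of these segments acts on was not tested.

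H3K27me3 over gene bodies lay in collagens under 1 FPKM when both replicates were required. Over the 18 collagens with an FPKM of at least 1 it covered 0%. It covered at least 10% of the gene in 2 of 44, COL2A1 (14.2%) and COL13A1 (10.7%), against 3.37% of all genes, and H3K27ac reached 10% in 2, COL4A2 and COL8A1, against 11.4%. COL9A3 was at 6.92%, COL9A1 at 4.94% and COL17A1 at 4.01%. The replicates differed widely here. H3K27me3 covered 37.5% of COL9A1 in replicate 1 and 6.18% in replicate 2, 26.2% and 4.66% of COL6A3, and 24.7% and 17.7% of COL2A1. The mean over the 44 genes was 1.21% in both replicates together, 4.90% with replicate 1 and 1.66% with replicate 2.

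**Figure D5:**
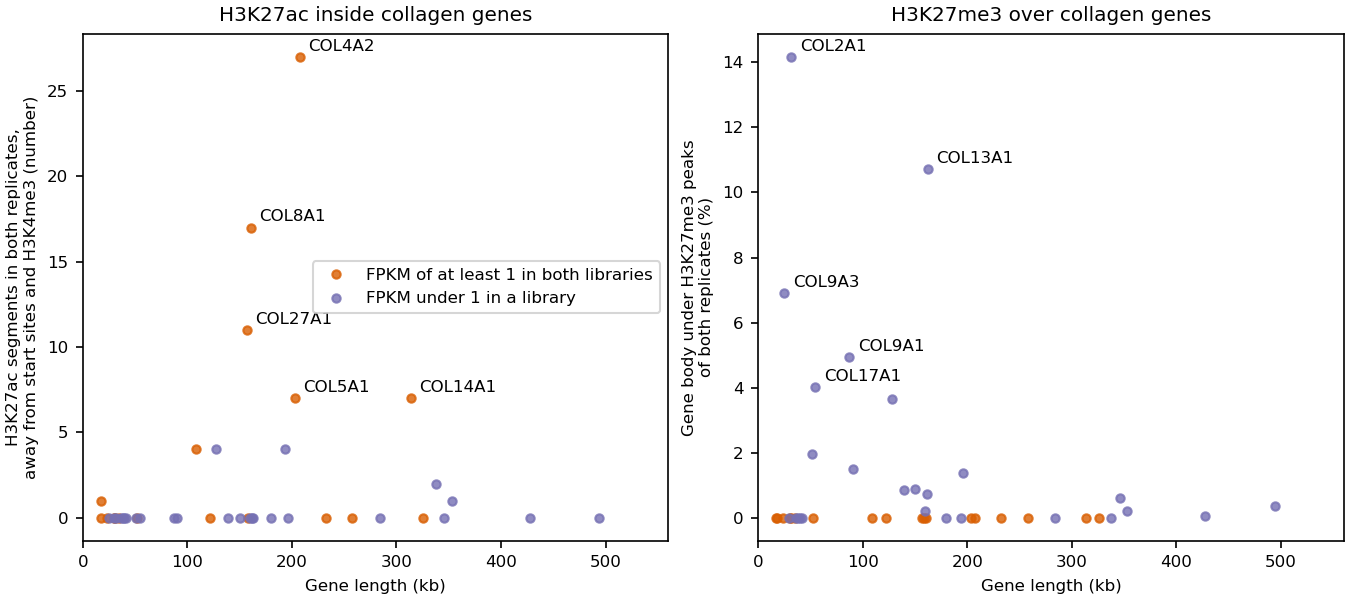
Number of inner H3K27ac segments (left) and percent of the gene body under H3K27me3 peaks of both replicates (right) against gene length in kb, for collagens at 1 FPKM or more in both libraries (orange) and under 1 in a library (purple). COL4A2 stands highest on the left with 27 segments and COL2A1 on the right with 14.2%.

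Promoter sequence, which the choice of genes did not use, was read from 250 bases before to 50 after each canonical start in GRCh37. The median GC content was 66.7% over the 44 collagens and 63.7% over 19547 protein-coding promoters. It was 72.5% in the 18 collagens with an FPKM of at least 1, against 67% for all promoters at that level, and 61.5% in the 26 others, against 57%. GGGCGG on either strand was found in 28 of 44 collagen promoters (63.6%), against 61.8% of all. It was in 17 of the 18 (94.4%, against 76.6% of all promoters at that level), with COL4A5 the exception, and in 11 of the 26 (42.3%, against 40.5%). By marks, it was in 12 of the 12 with H3K4me3 and H3K27ac, against 76.1% of all such promoters, but in 3 of the 8 with H3K4me3 and H3K27me3 (37.5%), against 78%. COL6A1 held 10 copies, COL9A3 9 and COL18A1 8. CCAAT was found in 14 of 44 (31.8%, against 36%) and TATAAA in 8 (18.2%, against 9.59%). Collagen promoters with H3K4me3 and H3K27me3 held a median of 29 CpG dinucleotides, those with H3K27me3 alone 7 and those without a mark 12. The medians over all protein-coding promoters of these classes were 29, 15 and 5. Marks were called at any start, but sequence was read at the canonical start. There, COL6A3, COL20A1 and COL28A1, with 4, 7 and 1 CpG, did not have H3K27me3 in both replicates. The other collagens with H3K27me3 alone held 3, 7, 18, 24 and 45, so the median of 7 does not describe marked promoters only.

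Genes that act on collagens were taken from lists, and the lists differed in level. Median FPKM was 47.8 for hydroxylation and glycosylation, 19.0 for folding and export and 8.41 for propeptide cleavage and crosslinking. It was 0.863 for receptors and 2.51 for proteases, against 3.32 over all protein-coding genes. An FPKM of 1 in both libraries was reached by 58.8% of all protein-coding genes, the share to set beside each count below. Of the enzymes that hydroxylate and glycosylate collagen chains, 14 of 15 reached an FPKM of 1, led by P4HB, the beta subunit of prolyl hydroxylase, at 534 and 504, with COLGALT2 lowest at 0.435 and 0.455. All 8 genes of folding and export did so, from FKBP10 at 119.7 and 81.8 to MIA2, a cargo receptor subunit for secretion, at 3.95 and 5.08. Of the genes that cleave propeptides and crosslink chains, 12 of 14 reached 1. LOXL2, a lysyl oxidase that crosslinks type IV collagen, was listed at 632 and 490, and ADAMTS2, the procollagen N-proteinase, at 0 in both. Collagen receptors reached 1 in 3 of 8, against 58.8% of all genes. ITGB1, the shared beta chain, stood at 340 and 308, while its collagen-binding partners ITGA1 (0.738 and 0.987), ITGA2 (0.761 and 0.966), ITGA10 (0.0400 and 0.0103) and ITGA11 (0 in both) were all under 1. Of collagen-cleaving proteases 5 of 7 reached 1, with MMP1, the interstitial collagenase, at 119.8 and 118 and MMP8 at 0 in both.

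Markers of the labelled cell type and of other types were read in the same libraries, where 58.8% of all protein-coding genes reached an FPKM of 1 in both. Of 11 proximal tubule markers, 3 reached an FPKM of 1, PAX8 (100.2 and 104), GGT1 (64.1 and 58.1) and SLC5A2 (1.56 and 2.36), and LRP2, SLC22A6 and HNF4A were listed at 0 in both, so mature tubule markers were largely absent. Of 6 epithelial markers 5 passed, KRT8 highest (179 and 184) and CDH1 lowest (0.210 and 0.283). The other cadherin of that list, CDH2, was among the 5 (59.3 and 59.7). Fibroblasts are a known source of fibrillar collagens, and 2 of 8 fibroblast markers passed, LUM (3.48 and 3.33) and POSTN (1.74 and 1.29), with FAP at 0 and a summed level of 7.06 and 6.18 FPKM. Endothelial markers summed to 0 and 0.0404 over the 4 of 5 found, podocyte markers to 19.1 and 22.0 with SYNPO highest (14.7 and 16.2) and WT1 at 0, and leukocyte markers to 42.8 and 37.1, nearly all CD68 (42.5 and 36.8), with PTPRC and CD3E at 0. The part of any other cell type in the collagen levels was not tested.

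An FPKM of 1 corresponded to a mean base coverage of 5.67 in library 1 and 5.52 in library 2 by the deposited coverage values, so levels well under 1 rest on few reads, and a gene listed at 0 was not detected at this depth. Across the 19645 genes, which are not independent, the libraries correlated at r = 0.994 as log10(FPKM + 1). Overlapping genes could share reads, since the strand setting of the counting is not given. COL18A1 overlaps SLC19A1 (10.9 and 11.3 FPKM) on the opposite strand over 20149 bp, COL10A1 overlaps NT5DC1 (7.12 and 14.6) over 39839 bp, and COL4A1 and COL4A2 overlap by 1346 bp.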

How the data were processed

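RNA-seq values were the FPKM per transcript that the authors deposited from StringTie version 1.3.3 after mapping with HISAT2. TPM and mean base coverage stood beside them. The paper names hg19 for the mapping, whereas the file headers name GENCODE version 27 on GRCh38, so genes were joined to the peaks by Ensembl identifier and no GRCh38 coordinate was used. Of 58288 genes, 55822 matched GENCODE version 44 lifted to GRCh37. ChIP-seq reads were mapped by the authors on hg19 (Bowtie2), and MACS2 peaks were made replicate by replicate. The 6 deposited lists give positions without scores, so they hold no depth behind a peak, and the MACS2 settings are not given in the sources used here. The labels number only the second replicate of each mark, and the other was called replicate 1. Input DNA and H3K27ac HiChIP were not analysed here.

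FPKM was summed over the transcripts of each gene. A peak counted for a gene within 1 kb of any of its annotated starts, on the 24 main chromosomes, and a mark was present where both replicates had one. The SD is over 2 libraries. Calculations used Python 3.11.15, numpy 2.4.6, pandas 2.3.3 and pysam 0.24.0 and figures matplotlib 3.10.9. The counting of peaks was tested on simulated data. Motif counts join both strands. Some sequences and genes that the rules take in are not reported here. Count models do not apply to FPKM, and with 1 condition no test was run.

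The members, lists and comparisons were chosen with earlier results of these data known. Genes named were those with a mean FPKM of at least 1, all type IV genes, those under 1 with H3K4me3 or H3K27ac at a start in both replicates, the 3 highest under 1, and the highest and lowest of each list. Other names followed from counts and were chosen after their values were seen. Alternatives covered thresholds, units, libraries, replicates, windows, start sites, peak width, class limits and the members on chromosome 20.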

Additional observations from a re-analysis of the deposited data

How the results depend on the processing

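A median, ratio or share was set against the SD between replicates and a count against a 1.5-fold change. Of 99 alternatives over 17 results, 76 stayed within that limit, 23 did not, and 0 reversed a ratio. These counts do not measure robustness, because the rule fixed some outcomes. Leaving out 1 of 2 libraries always moves the log2 ratio of COL4A1 over COL4A2 by less than the SD. TPM is a fixed multiple of FPKM within a library (2.76 and 2.78), so it changes medians and leaves that ratio as it was. With an FPKM above 0 in both libraries, 28 collagens passed. Collagens with H3K27ac numbered 20 with a peak in either replicate, and 12 to 20 when a replicate was left out. Those without a mark numbered 5 with either replicate and 5 to 7 when a replicate was left out. Beside these counts, shares of all genes were computed only for H3K27ac in each replicate. With TPM in place of FPKM the medians of fibrillar, basement membrane and other collagens were 1.64, 2.08 and 0.700, with the leading transcript alone 0.493, 0.401 and 0.0826, and over genes with an FPKM above 0 in both libraries 6.54, 333 and 3.35. With types VII, XV, XVII and XVIII counted as basement membrane, the medians of that class and of the others were 0.876 and 0.201. The mean share of the gene body was 6.52% for H3K27ac and 5.34% for H3K27me3 with either replicate, 2.27% to 6.37% and 1.66% to 4.90% when a replicate was left out. Leaving out the 2 genes on chromosome 20, and using the canonical transcripts of COL6A1 and COL6A2, were chosen after seeing the data. The latter took the log2 ratio of COL6A1 over COL6A3 from 8.01 to 5.99, of COL6A2 over COL6A3 from 8.70 to 8.30 and of COL6A1 over COL6A2 from -0.69 to -2.31. No paired analysis was possible because the results come from no test and the replicate numbers of different assays share no label of a culture. The lists give no depth per peak.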
